A study of Mus musculus with 12 samples.

Results

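The integrin subunits examined here are 10 genes, chosen by name, of the 55401 genes measured by mRNA sequencing in mouse bone marrow MSCs. They are the collagen-binding α subunits Itga1, Itga2 and Itga11, the fibronectin-binding α subunits Itga5 and Itga4, the vitronectin-binding and latent TGF-β-binding subunit Itgav, and the β subunits Itgb1, Itgb3, Itgb5 and Itgb8. Of the 10 genes, 6 had an FPKM (fragments per length of transcript and per depth of the library) of at least 1 in at least 3 of 12 libraries and were tested among 12016 genes. The other 4, Itga1, Itga2, Itga4 and Itgb8, did not meet this filter and are given as levels and from an edgeR fit without the filter. The subunits, and the gene lists set beside them, were chosen with earlier results of these data known. Shares over all tested genes are therefore given beside their counts as a description only.

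The MSCs were of C57BL/6 origin and came from a commercial supplier, so all groups share a single source of cells. They were left untreated, treated with TGF-β1 at 5 ng/mL, or treated with TGF-β1 in culture supernatant of M-MDSCs (TGF-β1/M-MDSC supernatant) or of G-MDSCs (TGF-β1/G-MDSC supernatant), with 3 libraries in each of the 4 groups. M-MDSCs and G-MDSCs are the monocytic and granulocytic myeloid-derived suppressor cells, here grown from C57BL/6 bone marrow with GM-CSF and IL-6 and sorted by flow cytometry. The study asked how these supernatants act on the myofibroblastic differentiation that TGF-β1 starts in MSCs. No library with unconditioned MDSC medium was analysed here, so products of the MDSCs and the medium itself cannot be told apart. Nothing in the sources used here says that the libraries of a group came from separate cultures, and the p-values then measure only the spread between these libraries, which may be technical.

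Integrins are receptors made of an α and a β chain that span the cell membrane, bind matrix proteins outside the cell and join through adaptor proteins to actin filaments inside it. The α chain mostly sets which matrix protein is bound. Itgb1 encodes the partner of α1, α2, α4, α5, α11 and also of αv, whereas the β3, β5 and β8 chains reach matrix proteins and the latent TGF-β complex as partners of αv. In fibroblasts, the fibronectin receptor and the αv integrins are known for building the fibronectin matrix and releasing TGF-β from its latent form, and the collagen receptor with α11 is known from myofibroblasts.

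The library totals ranged from 73977669 to 84565450 counts, and mitochondrial genes took 2.81% to 3.79% of them. All 7 MSC markers had counts in every group, with a summed FPKM from 496 to 583 that includes Itgb1 itself. Some were low in all libraries: Eng was at 0.635 to 0.968 FPKM, below the filter, Nt5e at 0.321 to 1.66 and Thy1 at 1.34 to 5.27. The defining leukocyte marker Ptprc never exceeded 0.0157 FPKM, with counts in 4 of the 6 libraries with supernatant and in 1 of the other 6. Lyz2, the lysozyme of myeloid cells, was at mean levels of 0.115 FPKM in untreated and 0.0573 FPKM in TGF-β1-treated MSCs and of 1.54 and 1.87 FPKM with M-MDSC and G-MDSC supernatant. The myeloid markers Ly6g, Ly6c2 and Itgb2 were instead highest in untreated MSCs, at means of 1.83, 1.71 and 1.25 FPKM. They were at 0.0681, 0.0450 and 0.400 FPKM with TGF-β1 alone, 0.0619, 0.148 and 0.282 with M-MDSC and 0.125, 0.211 and 0.507 with G-MDSC supernatant. Within the MSC list, Ly6a, the gene of Sca-1, was at mean levels of 245, 16.2, 92.5 and 66.9 FPKM in the untreated, TGF-β1, M-MDSC and G-MDSC supernatant groups. The libraries with supernatant stood apart by kidney tubule and hepatocyte genes. The summed FPKM of 7 kidney tubule markers was 0.36 to 0.593 without supernatant, 12.4 to 78.5 with M-MDSC supernatant and 43.3 to 57.2 with G-MDSC supernatant. The 5 hepatocyte markers were at 0 in all libraries without supernatant and summed to 0.116 to 45.6 and 48.4 to 53.9 FPKM with the respective supernatants. Among the M-MDSC supernatant libraries, replicate 3 carried most of this signal, with albumin (Alb) at 31.6 FPKM against a count of 0 in the other two. The part of these transcripts in the results below was not tested, and calls with M-MDSC supernatant are also given without replicate 3, an alternative that for the genes outside the 10 subunits was added after the data were seen. In these bulk libraries, fewer cells of a type and less RNA per cell cannot be told apart.

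The promoter sequences of 3 subunits are shown because they represent the subunit that rose most under TGF-β1 (Itga5), the subunit lowered by both supernatants (Itga11) and the common β chain (Itgb1). Each runs 5′ to 3′ from 250 bases before to 50 bases after the RefSeq start in GRCm38.p6. They lie at chr15:103366742-103367041 on the minus strand (Itga5), chr9:62677605-62677904 on the plus strand (Itga11) and chr8:128685404-128685703 on the plus strand (Itgb1). Capitals mark CAGAC, the longer form of the Smad-binding element, on either strand (GTCTG when read on the printed strand).
Itga5: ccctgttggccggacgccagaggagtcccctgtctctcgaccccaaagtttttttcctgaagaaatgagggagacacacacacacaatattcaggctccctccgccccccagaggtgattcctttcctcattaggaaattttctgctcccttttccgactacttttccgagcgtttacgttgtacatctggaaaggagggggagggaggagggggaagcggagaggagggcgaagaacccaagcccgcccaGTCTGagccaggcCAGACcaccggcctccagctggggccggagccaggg
Itga11: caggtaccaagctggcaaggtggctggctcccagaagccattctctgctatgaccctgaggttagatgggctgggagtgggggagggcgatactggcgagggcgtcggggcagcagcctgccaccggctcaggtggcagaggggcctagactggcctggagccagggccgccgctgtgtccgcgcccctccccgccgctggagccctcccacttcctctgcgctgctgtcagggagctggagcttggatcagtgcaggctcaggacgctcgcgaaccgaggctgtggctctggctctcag
Itgb1: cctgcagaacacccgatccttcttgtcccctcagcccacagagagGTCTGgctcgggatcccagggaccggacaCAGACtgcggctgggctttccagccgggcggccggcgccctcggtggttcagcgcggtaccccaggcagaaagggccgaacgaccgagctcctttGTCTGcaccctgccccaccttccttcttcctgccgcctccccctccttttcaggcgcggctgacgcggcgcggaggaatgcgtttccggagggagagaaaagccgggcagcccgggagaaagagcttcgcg
The Itga5 promoter held 2 matches, both after the start, the Itgb1 promoter held 3 and the Itga11 promoter held 0. Of the 9 subunits with an entry, all except Itgb3, 6 held the motif, against 49.6% of 32851 mouse promoters of the same length. GGGCGG, the core of the Sp1 site, was found in 6 of these 9 promoters and in 35.7% of all promoters. TGANTCA, the AP-1 site, was found in 0 of 9 and in 7.81% of all. GGAATG, a TEAD site, was found in the Itgb1 promoter alone among the 9 and in 14.7% of all. All motifs were searched on both strands, and none contains another. These matches describe the letters in the windows and say nothing on binding.

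The MSCs carried the fibronectin receptor pair at a far higher level than the collagen receptors. In untreated MSCs the mean level fell in the order Itgb1, Itga5, Itgb5, Itgav, Itga11, Itgb3, Itga2, Itga1, Itgb8 and Itga4, and the same order of means held in the other 3 groups. Itgb1 was at 253.8 ± 8.61 FPKM (SD, n = 3), Itga5 at 45.0 ± 2.08 and Itgb5 at 35.9 ± 2.93. Itgav followed at 4.97 ± 0.601, Itga11 at 2.57 ± 0.156 and Itgb3 at 2.10 ± 0.182. Neighbours in this order did not overlap between libraries, except Itga1 and Itgb8 in the untreated and the G-MDSC supernatant group.

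**Figure D1:**
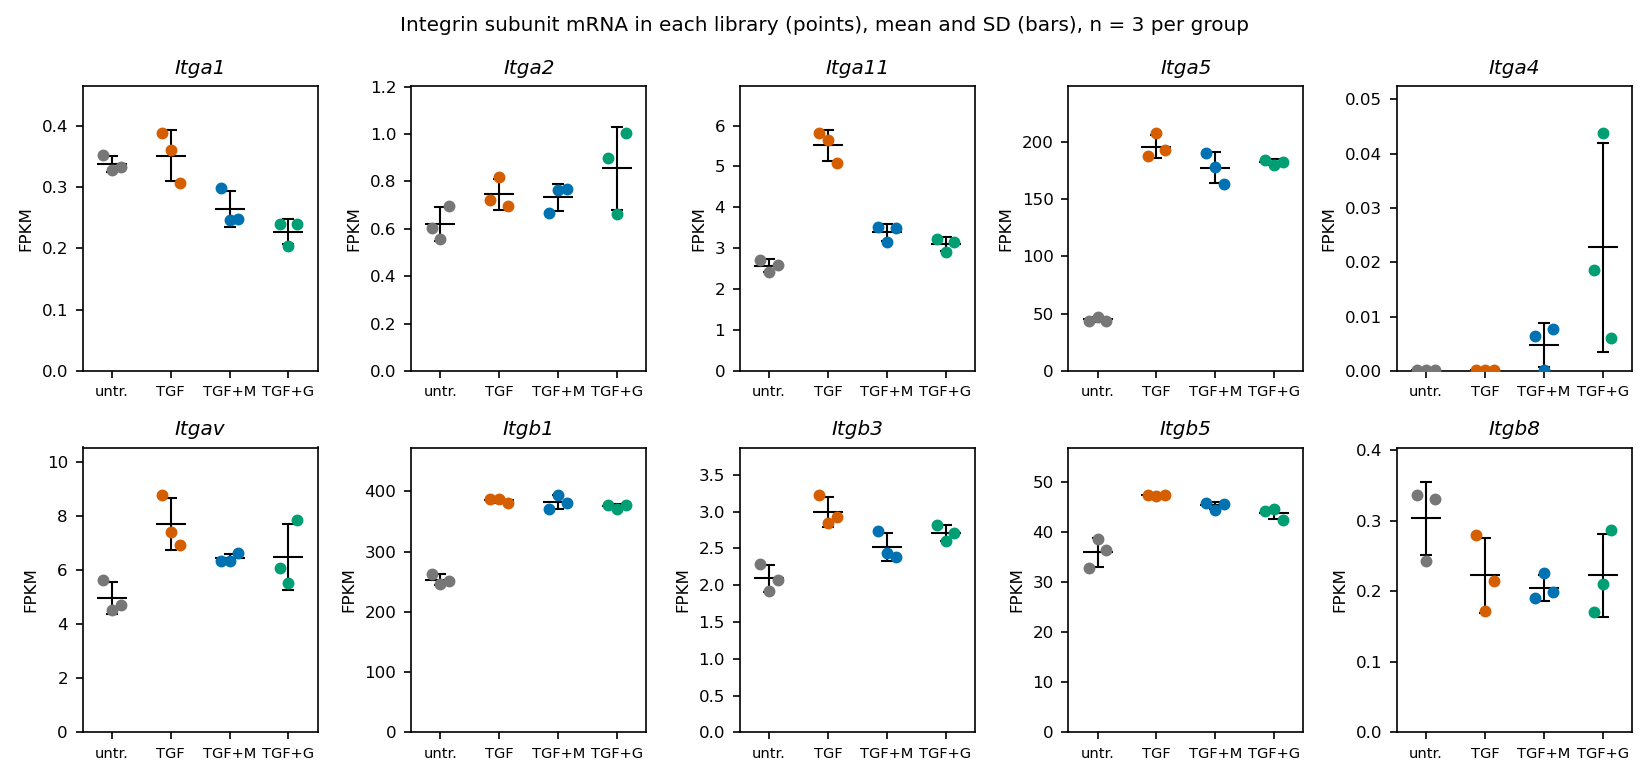
FPKM (y axis, linear and from 0, own scale per gene) of the 10 integrin subunits in each library of the untreated (untr.), TGF-β1 (TGF), TGF-β1/M-MDSC supernatant (TGF+M) and TGF-β1/G-MDSC supernatant (TGF+G) groups, with the mean and SD of 3 libraries. Itga5 stood at 188 to 207 FPKM with TGF-β1 against 43.7 to 47.4 without and stayed high with supernatant, whereas Itga11 rose to 5.09 to 5.81 FPKM with TGF-β1 and was at 2.90 to 3.52 with supernatant.

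To see how TGF-β1 alone changed the matrix receptors, the TGF-β1 group was compared with untreated MSCs. All 6 tested subunits rose, against 16.1% of the 12016 tested genes called higher and 34% called in either direction at an adjusted p under 0.05 (edgeR quasi-likelihood test, Benjamini-Hochberg). Their median log2 fold change was 0.68, against 0.0005 over all tested genes. For each of the 6, the lowest TGF-β1 library was above the highest untreated library, which held in this direction for 16.6% of tested genes. The study asked for more than a 2-fold rise, or a fall below 0.5-fold, at an unadjusted p under 0.05, and 2 of the 6 met this, against 2.6% of tested genes in this direction.

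The fibronectin-binding subunit Itga5 (ENSMUSG00000000555, chromosome 15, 103344286 to 103366763, minus strand) rose most among the subunits. Its FPKM was 43.7, 47.4 and 43.9 in the 3 untreated libraries and 188, 207 and 192 in the TGF-β1 libraries. The groups were far apart, and each held its libraries within a narrow range. The log2 fold change was 2.18 (SE 0.06), or 4.52-fold with a 95% interval of 4.11 to 4.98 (edgeR adjusted p = 1.99e-09). Its β partner Itgb1 (ENSMUSG00000025809, chromosome 8, 128685654 to 128733200) was at 263, 247 and 251 FPKM without treatment and at 388, 388 and 381 FPKM with TGF-β1. This was a log2 fold change of 0.66 (SE 0.03, 1.58-fold, edgeR adjusted p = 8.39e-08). Itga5 thus gained on Itgb1, and the Itga5 to Itgb1 ratio of FPKM was 0.178 ± 0.0134 in untreated and 0.508 ± 0.0252 in TGF-β1-treated MSCs (SD, n = 3 each). The ratios of the 2 groups did not overlap (exact permutation test, two-sided, p = 0.1, the lowest that 3 against 3 libraries allow).

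Itga11 (ENSMUSG00000032243, chromosome 9, 62677826 to 62783982), the α chain of a receptor for fibrillar collagen, was the other subunit past 2-fold. Its FPKM was 2.72, 2.41 and 2.59 in untreated and 5.81, 5.65 and 5.09 in TGF-β1-treated MSCs. The untreated libraries all lay below the treated ones, and the log2 fold change was 1.16 (SE 0.08, 2.23-fold, edgeR adjusted p = 1.15e-06). The other collagen-binding subunits did not pass the test. Itga1 (ENSMUSG00000042284, chromosome 13, 114953096 to 115101964) was at 0.338 ± 0.0128 FPKM without and 0.351 ± 0.0414 with TGF-β1, and Itga2 (ENSMUSG00000015533, chromosome 13, 114833081 to 114932100) at 0.620 ± 0.0708 and 0.745 ± 0.0646 (SD, n = 3 each). For both, the groups overlapped and the edgeR fit without a filter on low values, over 28622 genes, gave adjusted p-values of 0.647 and 0.231.

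Itgav and its β partners Itgb3 and Itgb5 also rose, with smaller fold changes than Itga5. Itgav (ENSMUSG00000027087, chromosome 2, 83724397 to 83806916) was at 5.66, 4.53 and 4.73 FPKM in untreated and 8.79, 7.42 and 6.94 FPKM in TGF-β1-treated MSCs. Replicate 1 was the highest library of both groups, and the log2 fold change was 0.69 (SE 0.13, edgeR adjusted p = 0.00224). Itgb3 (ENSMUSG00000020689, chromosome 11, 104608000 to 104670476), which completes a vitronectin and fibronectin receptor with αv, went from 2.29, 1.92 and 2.08 to 3.23, 2.84 and 2.92 FPKM, a log2 fold change of 0.57 (SE 0.09, edgeR adjusted p = 0.000384). Itgb5 (ENSMUSG00000022817, chromosome 16, 33829665 to 33949338), the chain of the vitronectin receptor αvβ5, went from 32.8, 38.6 and 36.3 to 47.3, 47.1 and 47.3 FPKM, a log2 fold change of 0.45 (SE 0.05, edgeR adjusted p = 6.66e-05). Itgb5 was the most abundant of Itgb3, Itgb5 and Itgb8, and its TGF-β1 libraries differed from each other by less than its untreated ones. Itgb8 (ENSMUSG00000025321, chromosome 12, 119158022 to 119238802), a chain that presents latent TGF-β with αv, was at 0.304 ± 0.0520 FPKM in untreated and 0.223 ± 0.0538 in TGF-β1-treated MSCs (SD, n = 3 each), with overlapping groups (unfiltered edgeR fit, adjusted p = 0.370).

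**Figure D2:**
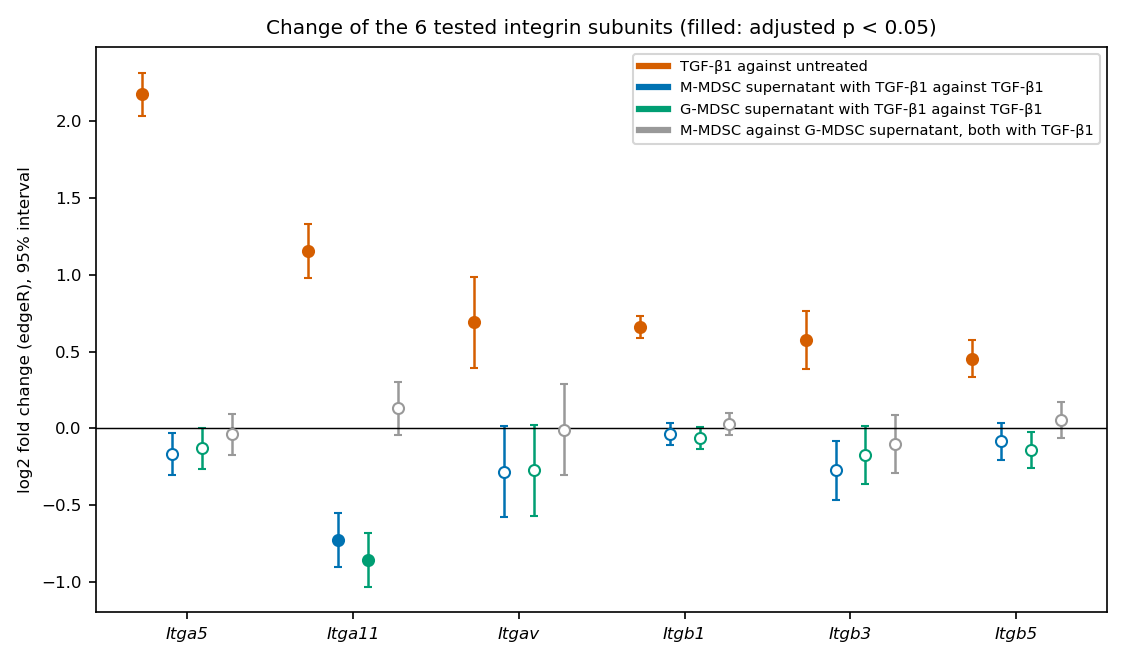
Log2 fold change (y axis) of the 6 tested integrin subunits (x axis) in 4 comparisons, from edgeR, with bars for the 95% interval and filled points for an adjusted p under 0.05. All 6 subunits have filled points for TGF-β1 against untreated, from 0.45 (Itgb5) to 2.18 (Itga5), and Itga11 alone has filled points below 0 for both supernatants, at -0.73 and -0.86.

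The rise of Itga5 came with a fall of Itga3, the α chain of a laminin receptor that also pairs with β1, and the leading α subunit of the cells was a different gene with and without TGF-β1. Itga3, which is not among the 10 subunits, had 120.1, 119.4 and 116 FPKM in untreated and 31.8, 29.2 and 31.8 FPKM in TGF-β1-treated MSCs (log2 fold change -1.88, SE 0.05, edgeR adjusted p = 1.16e-09). Of the summed FPKM of 18 α-subunit genes, Itga5 made up 24.1%, 26.1% and 25.1% in the untreated libraries and 78.3%, 81.2% and 79.7% with TGF-β1. Itga3 made up 66.0% ± 0.211 and 12.6% ± 1.02 (SD, n = 3 each). The Itga5 to Itga3 ratio was 0.380 ± 0.0166 without and 6.35 ± 0.651 with TGF-β1, and the groups did not overlap (exact permutation, two-sided, p = 0.1, again the lowest possible). The summed α-subunit FPKM itself went from 180 ± 3.59 to 245 ± 8.33, by less than Itga5 alone gained. Among the 9 β-subunit genes, Itgb1 held 86.0% ± 1.17 of the summed FPKM without and 88.3% ± 0.115 with TGF-β1.

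**Figure D3:**
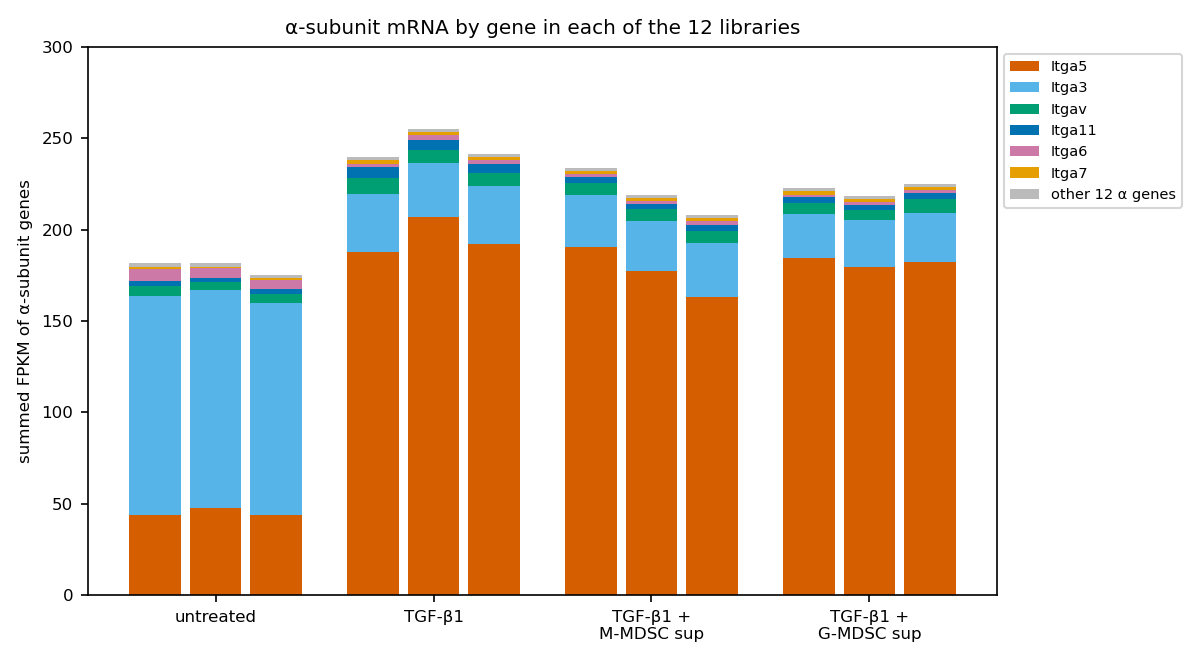
Summed FPKM (y axis, linear from 0) of the 18 α-subunit genes in each of the 12 libraries (bars, 3 per group on the x axis), with the parts of Itga5, Itga3, Itgav, Itga11, Itga6 and Itga7 in colour and the other 12 genes in grey. Itga3 makes up most of each untreated bar and Itga5 most of every bar with TGF-β1, with or without supernatant.

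Among the 9 other integrin subunits outside the leukocyte family, 3 passed the filter, and all 3 were called under TGF-β1, against 34% of tested genes. Besides Itga3, Itga6, a laminin-binding α chain, fell by 1.33 on the log2 scale (edgeR adjusted p = 1.66e-05), and Itga7, the laminin-binding α chain of muscle, rose by 0.96 (edgeR adjusted p = 2.79e-05). Among the untreated libraries Itga7 reached an FPKM of 1 only in replicate 1. It thus passed the filter through libraries with TGF-β1, which favours a rise and its place in this count. Of the 8 leukocyte integrin genes, Itgb2 and Itgb7 passed the filter, through the untreated libraries alone, which favours a fall, and both were lower with TGF-β1. Itgb2 was at 1.25 ± 0.105 and 0.400 ± 0.115 FPKM, and Itgb7 at 1.15 ± 0.129 and 0.157 ± 0.0820 FPKM, without and with TGF-β1 (SD, n = 3 each).

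To see whether MDSC supernatants changed the matrix receptors of MSCs under TGF-β1, each supernatant group was compared with the TGF-β1 group. Both comparisons use the same 3 TGF-β1 libraries and are therefore not independent. With M-MDSC supernatant, 1 of the 6 tested subunits was lower, against 1.95% of tested genes called lower, and 0 were higher, against 2.83%. With G-MDSC supernatant, 1 of 6 was again lower, against 2.46% of tested genes, and 0 were higher, against 3.1%. The subunit was Itga11 in both. The median log2 difference of the 6 subunits was -0.22 with M-MDSC and -0.16 with G-MDSC supernatant, against -0.01 over all tested genes in each comparison. None of the 6 met the study's call for a fall below 0.5-fold with either supernatant (0 of 6), against 0.241% and 0.275% of tested genes called lower.

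Itga11 was at 3.52, 3.15 and 3.48 FPKM with M-MDSC supernatant and at 3.24, 2.90 and 3.16 FPKM with G-MDSC supernatant. All of these values lay below the lowest library with TGF-β1 alone and above the highest untreated library. Against TGF-β1 alone, the log2 fold change was -0.73 (SE 0.08, 0.604-fold, edgeR adjusted p = 0.000249) with M-MDSC and -0.86 (SE 0.08, 0.552-fold, edgeR adjusted p = 6.74e-05) with G-MDSC supernatant. Without replicate 3, the library with the strongest kidney and liver signal among those with M-MDSC supernatant, the first value was -0.75 (edgeR adjusted p = 0.00142). The G-MDSC libraries all carried this signal too. Expressed as FPKM, 72.4% of the TGF-β1 rise of Itga11 was absent in the M-MDSC group and 82.1% in the G-MDSC group, with ranges of 68.4% to 74.7% and 78.7% to 84.4% on leaving out single libraries. Compared with untreated MSCs, Itga11 was still higher in both groups, by 0.43 (edgeR adjusted p = 0.00152) and 0.30 (edgeR adjusted p = 0.0126) on the log2 scale.

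Itga5 and Itgb1 kept most of their rise under both supernatants. Itga5 was at 190.5, 177 and 163 FPKM with M-MDSC supernatant and at 184, 179 and 183 FPKM with G-MDSC supernatant. The M-MDSC libraries overlapped those with TGF-β1 alone, and the G-MDSC libraries lay just below them. The log2 differences were -0.17 (95% interval -0.30 to -0.03, edgeR adjusted p = 0.182) and -0.13 (-0.26 to 0.00, edgeR adjusted p = 0.307), and 12.3% and 9.01% of the rise in FPKM was absent, with ranges of 7.78% to 16.8% and 5.44% to 11.3% on leaving out single libraries. Itgb1 was at 382 ± 11.6 and 375 ± 4.15 FPKM (SD, n = 3 each), with log2 differences of -0.04 (-0.11 to 0.04) and -0.06 (-0.14 to 0.01). Of its rise, 2.68% (range -1.34% to 7.38%) and 7.63% (5.82% to 9.22%) was absent. Itga11 fell against both of these genes. The log2 ratio of Itga11 to Itga5 fell by 0.56 with M-MDSC and by 0.73 with G-MDSC supernatant against TGF-β1 alone, and that of Itga11 to Itgb1 fell by 0.69 and 0.79. The libraries did not overlap in any of these 4 comparisons (exact permutation, two-sided, unadjusted p = 0.1 in each, which is the lowest this design allows). In untreated MSCs the mean log2 ratio of Itga11 to Itga5 was -4.13. It was -5.15 with TGF-β1 alone and -5.71 and -5.88 with M-MDSC and G-MDSC supernatant. The supernatant groups thus lay further from untreated MSCs. That of Itga11 to Itgb1 was -6.62 in untreated MSCs and -6.13 with TGF-β1 alone. At -6.82 and -6.92 with supernatant it lay below untreated MSCs without overlap.

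The genes of the αv integrins did not pass the test with either supernatant. Itgav was at 6.35, 6.35 and 6.63 FPKM with M-MDSC and at 6.09, 5.54 and 7.86 FPKM with G-MDSC supernatant. G-MDSC replicate 3 reached into the range of TGF-β1 alone, whereas the M-MDSC libraries lay close together below it. The log2 differences from TGF-β1 alone were -0.28 (95% interval -0.58 to 0.01, edgeR adjusted p = 0.322) and -0.27 (-0.57 to 0.02, edgeR adjusted p = 0.337). Itgb3 was at 2.73, 2.43 and 2.39 FPKM and at 2.82, 2.59 and 2.71 FPKM, all below the lowest TGF-β1 library, with log2 differences of -0.27 (-0.46 to -0.08, edgeR adjusted p = 0.122) and -0.17 (-0.36 to 0.02, edgeR adjusted p = 0.343). Itgb5 was at 45.8, 44.4 and 45.6 FPKM and at 44.2, 44.5 and 42.4 FPKM, also below each TGF-β1 library, with log2 differences of -0.08 (-0.20 to 0.03, edgeR adjusted p = 0.472) and -0.14 (-0.26 to -0.02, edgeR adjusted p = 0.199). Of the TGF-β1 rise in FPKM, 46.5% (M-MDSC) and 44.4% (G-MDSC) was absent for Itgav, 53.2% and 32.1% for Itgb3, and 17.6% and 31.3% for Itgb5. With single libraries left out, the share for Itgav ranged from 33.5% to 53.1% and from 27.0% to 69.3%, and that for Itgb3 from 46.0% to 65.0% and from 22.2% to 38.0%. In all, 4 of the 6 subunits did not overlap the TGF-β1 group and lay below it with M-MDSC supernatant, against 10.6% of tested genes, and 5 of 6 did with G-MDSC supernatant, against 9.55%.

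**Figure D4:**
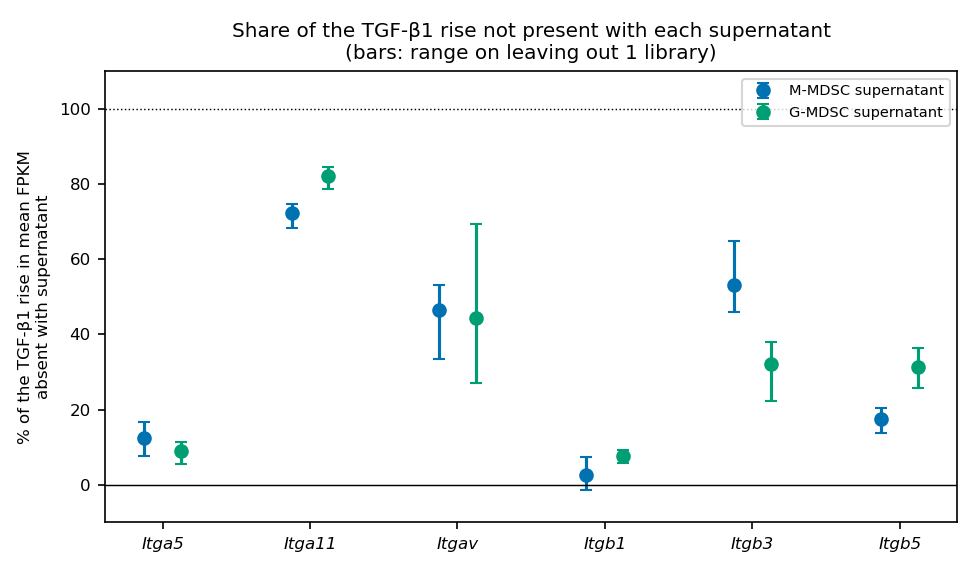
Percentage of the TGF-β1 rise in mean FPKM (y axis) that was absent with M-MDSC (blue) or G-MDSC (green) supernatant for the 6 tested subunits (x axis), with bars for the range on leaving out single libraries. Itga11 stands at 72.4% and 82.1%, Itga5 at 12.3% and 9.01% and Itgb1 at 2.68% and 7.63%, and the bars of Itgav are the widest, from 27.0% to 69.3% with G-MDSC supernatant.

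All 6 tested subunits stayed above their untreated level with either supernatant, against 16.4% of tested genes called higher with M-MDSC and 16.4% with G-MDSC supernatant. Itga5 remained 4.03-fold and 4.13-fold above untreated MSCs (edgeR adjusted p = 3.78e-09 and 3.73e-09). For Itgb1 the folds were 1.54 and 1.51, for Itgb5 1.29 and 1.24, and for Itgb3 1.23 and 1.32. Itgav passed narrowly, at 1.33-fold and 1.34-fold (edgeR adjusted p = 0.0360 and 0.0329), and G-MDSC replicate 2 lay below the highest untreated library. Without M-MDSC replicate 3, the other 5 subunits still passed against untreated MSCs in the M-MDSC group, against 14.2% of tested genes called higher in that fit, and Itgav did not (log2 fold change 0.39, edgeR adjusted p = 0.0895). Of the summed α-subunit FPKM, Itga5 took 80.3% ± 1.68 and 82.0% ± 0.844 and Itga3 12.9% ± 1.03 and 11.5% ± 0.527 with the respective supernatants (SD, n = 3 each), and these libraries overlapped those with TGF-β1 alone, although the Itga3 shares of the M-MDSC and G-MDSC libraries did not overlap each other. The share of Itga11 was 2.25% ± 0.159 with TGF-β1 alone and 1.54% ± 0.120 and 1.40% ± 0.0619 with supernatant, without overlap (exact permutation, two-sided, p = 0.1 in each, the lowest possible). In their own levels, Itga3 and Itga6 were lower with G-MDSC supernatant than with TGF-β1 alone, at log2 fold changes of -0.30 (edgeR adjusted p = 0.00296) and -0.58 (edgeR adjusted p = 0.0260). With M-MDSC supernatant the values were -0.15 and -0.23 (edgeR adjusted p = 0.129 and 0.415), and neither gene passed between the supernatants (edgeR adjusted p = 0.481 and 0.676).

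Between the supernatants, 0 of the 6 subunits passed the test in either direction, against 0.125% of tested genes, and the libraries overlapped for each of them, against 12% of tested genes without overlap. The largest difference was that of Itga11, 0.13 higher on the log2 scale in the M-MDSC group (95% interval -0.04 to 0.30), with the lowest unadjusted p of the 6 at 0.129 (edgeR) and an adjusted p of 0.884. The interval thus allowed a fold from 0.970 to 1.23 for Itga11. It allowed 0.889 to 1.07 for Itga5 and 0.971 to 1.07 for Itgb1, 0.817 to 1.06 for Itgb3 and 0.956 to 1.13 for Itgb5, and it was widest for Itgav, from 0.810 to 1.22. Some relative measures of the α chains did separate the supernatants. The log2 ratio of Itga11 to Itga5 was -5.71 ± 0.14 with M-MDSC and -5.88 ± 0.06 with G-MDSC supernatant, and the Itga5 to Itga3 ratio was 6.26 ± 0.602 and 7.16 ± 0.399 (SD, n = 3 each). Neither ratio overlapped between these groups, nor did the share of Itga3 (exact permutation, two-sided, p = 0.1 in each, unadjusted and the lowest possible), whereas the other shares, sums and ratios computed did. In the fit without a filter, Itga1 (log2 difference 0.22, no overlap), Itga2 (-0.21) and Itga4 had an adjusted p of 0.809 each, and Itgb8 was at -0.11 (edgeR adjusted p = 1).

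Of the weakly expressed subunits, Itga1 was lower with G-MDSC supernatant. Its FPKM was 0.387, 0.360 and 0.306 with TGF-β1 alone, 0.298, 0.246 and 0.248 with M-MDSC and 0.240, 0.203 and 0.239 with G-MDSC supernatant. The libraries with either supernatant lay below all TGF-β1 libraries. In the edgeR fit without a filter on low values, the log2 difference was -0.42 (adjusted p = 0.157) with M-MDSC and -0.65 (adjusted p = 0.0171) with G-MDSC supernatant, and -0.53 (adjusted p = 0.0122) for G-MDSC and -0.31 (adjusted p = 0.138) for M-MDSC supernatant against untreated MSCs. Itga1 shares its locus with Pelo and Gm49395 on the same strand, and how the counts were split between them is not given in the sources used here.

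Itga2 was at 0.733 ± 0.0570 FPKM with M-MDSC and 0.854 ± 0.173 FPKM with G-MDSC supernatant, and Itgb8 at 0.205 ± 0.0187 and 0.223 ± 0.0590 FPKM (SD, n = 3 each). Both genes overlapped the TGF-β1 group with either supernatant and did not pass against it in the unfiltered fit. Against untreated MSCs, Itga2 passed with G-MDSC supernatant in that fit (log2 fold change 0.51, edgeR adjusted p = 0.0470), although the libraries of these groups overlapped, and not with M-MDSC supernatant (0.29, edgeR adjusted p = 0.280). Itgb8 did not pass against untreated MSCs with M-MDSC (-0.51, edgeR adjusted p = 0.188) or G-MDSC supernatant (-0.40, edgeR adjusted p = 0.321). Its M-MDSC libraries all lay below the untreated ones, whereas its G-MDSC libraries overlapped them.

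Itga4 (ENSMUSG00000027009, chromosome 2, 79255426 to 79333123), the α chain that binds fibronectin and VCAM-1 and is best known from leukocytes, had 0 counts in all 6 libraries without supernatant. A count of 0 still allows up to 3 counts per library. With M-MDSC supernatant it had 8, 0 and 10 counts, and with G-MDSC supernatant 25, 54 and 8 counts, at most 0.0437 FPKM. The counts appeared in 5 of the 6 libraries with supernatant. The edgeR fit without a filter gave adjusted p-values of 0.316 with M-MDSC and 0.128 with G-MDSC supernatant against TGF-β1 alone, and 0.102 and 0.0349 against untreated MSCs. In the same libraries the summed FPKM of 12 myeloid markers, Itgb2 among them, was 2.35 to 4.77 with M-MDSC and 3.95 to 7.49 with G-MDSC supernatant, against 1.49 to 1.78 with TGF-β1 alone and 5.33 to 5.71 in untreated MSCs. With M-MDSC and with G-MDSC supernatant 10 of the 12 myeloid markers had counts each, against 7 with TGF-β1 alone and 6 in untreated MSCs. S100a9, a neutrophil and monocyte gene, had 0 counts in the 6 libraries without supernatant, 43, 12 and 23 counts with M-MDSC and 0, 0 and 160 counts with G-MDSC supernatant, and the mean levels of Lyz2 are given above. Ly6g, Ly6c2 and Itgb2 of the same list went the other way and were highest in untreated MSCs, at the levels given above. Mpo and Elane, genes of immature neutrophils, were at 0 in all libraries. The kidney tubule and hepatocyte genes given above moved with the same groups. The part of these transcripts in the Itga4 counts was not tested.

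Inside the cell, the adaptors that join integrins to actin moved in both directions under TGF-β1. Of 32 adaptor genes, 28 were tested, with 12 higher and 8 lower, against 16.1% and 17.9% of all tested genes, and with a median log2 fold change of 0.13. The largest rises were those of Ptk2b, a kinase related to focal adhesion kinase (log2 fold change 3.31, SE 0.14), Tln2, a talin that links β chains to actin (1.41, SE 0.09), and Tns1, a tensin (1.26, SE 0.09). Ptk2b reached an FPKM of 1 in the libraries with TGF-β1 alone or with supernatant and in none of the untreated ones, so the filter favours its rise. The largest falls were those of Kank1, a talin-binding protein (-1.57, SE 0.18), Dab2, an endocytic adaptor (-0.79, SE 0.05), and Tns2 (-0.57, SE 0.06). All of these passed at edgeR adjusted p-values of 6.69e-05 or less. With M-MDSC supernatant 3 of 28 were lower and with G-MDSC supernatant 5 of 28, and 0 were higher with either, against 1.95% and 2.46% of tested genes called lower. Without M-MDSC replicate 3, where 0.99% of tested genes were called lower, 1 of 28 was lower with M-MDSC supernatant, Rsu1 (-0.43, edgeR adjusted p = 0.0121), and Tln2 no longer passed (-0.43, edgeR adjusted p = 0.0711). With all libraries Tln2 was lower with both, at log2 fold changes of -0.44 (edgeR adjusted p = 0.0181) and -0.71 (edgeR adjusted p = 0.000779), next to Rsu1 with M-MDSC (-0.34) and Tns1 with G-MDSC supernatant (-0.41).

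Most matrix ligands of these receptors rose under TGF-β1. Of 24 ligand genes, 23 were tested, and 17 rose and 3 fell under TGF-β1, against 16.1% and 17.9% of tested genes, with a median log2 fold change of 0.53. Postn, the matricellular protein periostin, went from 0.0974 ± 0.0259 to 3.30 ± 0.279 FPKM (SD, n = 3 each), followed by Ccn2 (log2 fold change 2.53, SE 0.06) and Tnc, tenascin C (2.33, SE 0.08). Postn, too, passed the filter only through libraries with TGF-β1, which favours a rise. The 3 that fell were Ccn3 (-3.12, SE 0.26), Npnt, nephronectin (-2.58, SE 0.13), and Vcam1, the ligand of the α4 integrin (-1.26, SE 0.12). Ccn3 passed the filter through the untreated libraries alone, which favours a fall. With M-MDSC supernatant 13 of 23 ligands were lower and 0 higher, and with G-MDSC supernatant 16 were lower and 1 higher, against 1.95% and 2.46% of tested genes called lower and 2.83% and 3.1% called higher. Without M-MDSC replicate 3, 6 of 23 were lower with M-MDSC supernatant, against 0.99% of tested genes in that fit, Col6a1 among them (-0.44, edgeR adjusted p = 0.000752), and Postn no longer passed (-0.76, edgeR adjusted p = 0.107). With all libraries Postn was lower with both, at log2 fold changes of -0.82 (SE 0.18, edgeR adjusted p = 0.0267) and -1.02 (SE 0.18, edgeR adjusted p = 0.00715), and the collagen VI genes Col6a1 with M-MDSC (-0.47) and Col6a2 with G-MDSC supernatant (-0.56) were next. Spp1, osteopontin, was the 1 ligand called higher, by 0.17 with G-MDSC supernatant (edgeR adjusted p = 0.0420). Vtn, vitronectin, was not called against TGF-β1 alone but had 0 counts in every library without supernatant. It had 0, 8 and 166 counts with M-MDSC and 215, 192 and 238 counts with G-MDSC supernatant. Vtn passed the filter through the G-MDSC libraries alone, and the part of the hepatocyte transcripts in its counts was not tested.

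Of 9 genes for latent TGF-β and its binding proteins, the complex that αv integrins bind, 8 were tested, and 5 rose and 0 fell under TGF-β1, against 16.1% and 17.9% of tested genes. Tgfb1 itself rose by 1.98 (SE 0.13), Ltbp2 by 1.92 (SE 0.10) and Tgfb3 by 0.71 (SE 0.08) on the log2 scale. With M-MDSC supernatant 1 of 8 was lower, Ltbp3 (-0.23, edgeR adjusted p = 0.0424), and with G-MDSC supernatant 2 were lower, Ltbp4 (-0.30, edgeR adjusted p = 0.0376) and Ltbp3 (-0.25, edgeR adjusted p = 0.0251), against 1.95% and 2.46% of tested genes called lower. Without M-MDSC replicate 3, 0 of 8 were lower with M-MDSC supernatant in edgeR, against 0.99% of tested genes, with Ltbp3 at -0.23 (adjusted p = 0.118).

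The genes most like Itga5, Itga11 and Itgb1 across the libraries were found by the root mean square difference of centred log2(FPKM + 1) over the 12 libraries, given here as a description. Among those nearest to Itga5 were Atp2b4, a plasma membrane calcium pump (0.08), and Tcim (0.10). Those nearest to Itga11 were Lsp1, an actin-binding protein (0.10), Sgtb (0.12) and Cmklr1, the chemerin receptor (0.13). Lsp1 had mean levels of 5.19, 9.35, 6.67 and 6.12 FPKM in the untreated, TGF-β1, M-MDSC and G-MDSC supernatant groups. Those nearest to Itgb1 were Kansl3 (0.05), Tbpl1 (0.05) and Cttnbp2nl (0.05). The added 1 shrinks the fold range of a gene of low level, so a small difference by this measure does not mean an equal fold change. Atp2b4, for example, went from 0.233 to 4.33 FPKM with TGF-β1 (group means). All 12 libraries share the same source of cells and the same annotation.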

How the data were processed

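Poly(A) RNA of MSCs was sequenced in 12 libraries, 3 per group. The authors trimmed the reads, aligned them to GRCm38 with HISAT2 (2.0.4 per the submitters' processing notes) and assembled transcripts with StringTie (1.3.4d). The deposited table holds raw counts per gene and library. The counting tool and its strand setting are not given in the sources used here, although the kit marks strand. The deposited FPKM values were calculated by the authors, with 0.0001 in place of a count of 0. Low counts pile up at 4, 8 and 12, which made up 44.3% of nonzero counts up to 12, so an alternative divided counts by 4.

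Groups were taken from the treatment labels. The 12016 of 55401 genes that reached an FPKM of 1 in 3 or more libraries were tested on the counts with edgeR 4.0.16 in R 4.3.3 (TMM factors 0.978 to 1.03, quasi-likelihood F test, two-sided, all 4 groups in a single fit), with Benjamini-Hochberg adjustment over all tested genes. Log2 fold changes and 95% intervals come from this fit, and intervals cover the spread between libraries only. Shares and ratios of FPKM were compared with two-sided exact permutation tests, for which 20 splits of 6 libraries give a smallest p of 0.1. The percentage of a rise that was absent with supernatant is the difference of the TGF-β1 and supernatant means over that of the TGF-β1 and untreated means, in FPKM, with no test. Libraries of a group differed beyond counting error, so none was counted as a duplicate.

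All 10 subunits are named. Other integrin subunits are named where they passed the filter. Of the adaptor, ligand and latent TGF-β lists, up to 3 genes per direction with the largest called change under TGF-β1 and up to 2 per direction for each supernatant are named. The subunits and lists were chosen with earlier results of these data known. Pattern neighbours are the 3 tested genes with the smallest root mean square difference of centred log2(FPKM + 1), for the 3 subunits with the largest range of group means. A gene that this rule names is not reported here. Promoters came from a RefSeq table of GRCm38.p6. The test was tried on simulated data. Alternatives were DESeq2 1.42.0, limma 3.58.1 on log2(FPKM + 1) and log2(FPKM + 0.1), other scalings, no filter, a replicate block, only the 2 groups compared, the study's call rule and leaving out each library in turn. Python 3.11.15 with pandas 2.3.3 was used for the tables.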

Additional observations from a re-analysis of the deposited data

How the results depend on the processing

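Among the counts of called subunits, the rise under TGF-β1 went from 6 to 2 genes by the study's call rule (fold change above 2 or below 0.5, unadjusted p under 0.05), those against untreated MSCs with M-MDSC and with G-MDSC supernatant from 6 to 1, and the falls with M-MDSC and with G-MDSC supernatant from 1 to 0. The rule asks for a fold that these smaller changes do not reach. By the same rule 2.6% of tested genes were higher under TGF-β1, and 0.241% and 0.275% were lower with M-MDSC and G-MDSC supernatant. The shares by this rule against untreated MSCs are not given here. Libraries with the same replicate number did not deviate together (mean correlation 0.0017 over 18 pairs, from -0.0981 to 0.0863), so the number was not used to pair them. With a replicate block, the subunits lower with M-MDSC supernatant went from 1 to 2, through Itgb3 (log2 fold change -0.27, adjusted p = 0.0444), and no other count of called subunits changed. In that comparison the fit with the block called 461 genes in either direction, against 574 without it. For Itgb5 the absent percentage of the rise ranged from 13.8% to 20.4% (M-MDSC) and from 25.6% to 36.3% (G-MDSC) on leaving out single libraries, lowest without M-MDSC replicate 2 and without G-MDSC replicate 3.

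The fall of Itga11 passed in 21 of 21 alternatives with each supernatant, from -0.78 to -0.57 (highest adjusted p = 0.00614) and from -0.91 to -0.67 (highest adjusted p = 0.00206). Itgav against untreated MSCs passed in 14 of 21 alternatives with M-MDSC (adjusted p up to 0.111, without untreated replicate 2) and 15 of 21 with G-MDSC supernatant (up to 0.118, without G-MDSC replicate 3), and Itgb3 in 17 of 21 with M-MDSC supernatant (up to 0.0741, without M-MDSC replicate 1). Of all log2 fold changes of tested subunits under these alternatives, 738 kept their side of the threshold, 17 lost significance and 1 gained it, and no called value changed direction. The other scalings moved the median of all tested genes by less than 0.1 on the log2 scale. Library depth did not limit the tested subunits, whose lowest count was 1059.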
